A study of Mus musculus with 4 samples.

Results

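The transcripts described here were listed as those of rod photoreceptors and were read in 2 sorts of retinal interneurons. Rods were not the cells collected. The members are all probe sets annotated to exactly 1 gene among 9 rod genes listed by symbol. The rule uses no measured value, but the list was drawn up with earlier results of these data known. Of these 9 genes, 8 had such a probe set, 11 probe sets in all, out of 18193 genes and 34945 probe sets of that kind on the array. Nr2e3, a nuclear receptor that represses cone genes in rods, was not analysed here. RNA came from offspring of a mixed C57Bl6 x CD1 background at postnatal day 6, bred from male carriers of the MP transgene, which labels cells with the fluorescent protein CFP, and non-carrier females. MP amacrine cells were the CFP-positive cells that bound the VC1.1 antibody, and MP bipolar cells were the CFP-positive cells left unbound after a magnetic column had removed VC1.1-positive cells. Each sort had 2 biological replicates from different litters, of roughly 1000 cells each, amplified in 2 rounds and read on 1 array each. The labels do not say which promoter drives the transgene, and whether rods carry it was not tested.

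Rods are the most numerous neurons of the mouse retina and sense dim light. Light activates the visual pigment, the G protein transducin passes the signal to a phosphodiesterase that breaks down cyclic GMP, and arrestin, recoverin and phosducin tune or end the response. The transcription factor Nrl sets rod fate and, with Crx, switches on most rod genes. Rod genes come on in sequence after birth, and the outer segment, the stack of membrane discs that holds the cascade, is still immature at the age sampled. In RNA from pooled cells, fewer rods and less RNA per rod cannot be told apart. Whether the signal came from rods within a sort, from cones, from free RNA or from the sorted cells themselves was not tested.

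Promoters are shown for Sag, Gngt1 and Pde6b, members with a match to the motifs of these factors whose values over the 4 arrays differed from each other. RefSeq (GRCm38.p6) gave a window of 250 bases before to 50 bases after the start for 7 of the 9 genes. Both strands were searched for TAATCC, the core of the Crx site, and TGCTGA, part of the Nrl site. Capitals mark the matches, which do not overlap each other.
Sag, chr1:87803430-87803729, plus strand: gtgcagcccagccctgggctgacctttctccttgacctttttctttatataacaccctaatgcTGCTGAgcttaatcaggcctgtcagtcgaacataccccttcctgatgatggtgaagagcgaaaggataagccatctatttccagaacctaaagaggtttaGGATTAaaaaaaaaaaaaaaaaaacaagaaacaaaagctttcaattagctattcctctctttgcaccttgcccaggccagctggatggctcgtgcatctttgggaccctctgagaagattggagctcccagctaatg
Gngt1, chr6:3993758-3994057, plus strand: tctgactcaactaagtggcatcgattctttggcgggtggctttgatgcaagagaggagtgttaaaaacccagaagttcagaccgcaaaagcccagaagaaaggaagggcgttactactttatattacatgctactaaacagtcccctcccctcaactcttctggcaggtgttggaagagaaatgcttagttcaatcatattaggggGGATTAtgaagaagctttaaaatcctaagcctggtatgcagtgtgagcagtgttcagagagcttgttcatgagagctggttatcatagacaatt
Pde6b, chr5:108388123-108388422, plus strand: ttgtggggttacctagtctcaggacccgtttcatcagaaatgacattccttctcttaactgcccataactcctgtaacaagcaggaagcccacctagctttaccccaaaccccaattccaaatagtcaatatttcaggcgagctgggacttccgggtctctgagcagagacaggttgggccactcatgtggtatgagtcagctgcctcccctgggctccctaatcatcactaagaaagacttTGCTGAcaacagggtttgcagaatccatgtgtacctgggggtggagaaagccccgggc
The Sag window held TGCTGA beginning 187 bases before the start and TAATCC, on the opposite strand, beginning 87 bases before it. The Gngt1 window held TAATCC on the opposite strand 44 bases before the start, and the Pde6b window held TGCTGA 8 bases before it. The windows of Pdc, Nr2e3, Nrl and Prph2 held neither motif. Among 32851 promoter windows of this length, 7.06% held TAATCC, 19.5% held TGCTGA and 1.36% held both. A match describes letters in the window and no binding was measured.

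Levels differed widely among the rod genes. Of the 8 genes measured, 6 lay above the array's median intensity on all 4 arrays, namely Sag, Gngt1, Pdc, Nrl, Pde6b and Rcvrn. Of all 18193 genes 54.8% did so, so the count by itself does not set the rod genes apart. The median intensity of an array lay between 44.5 and 47.2, and the table carries no detection calls, so the median stands in for a detection limit. The other members were dim, with Gnat1 above the median on 1 array and Prph2 on none. Of the 11 probe sets, 8 were above the median on all 4 arrays, beside 45.5% of all probe sets of 1 gene.

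**Figure D1:**
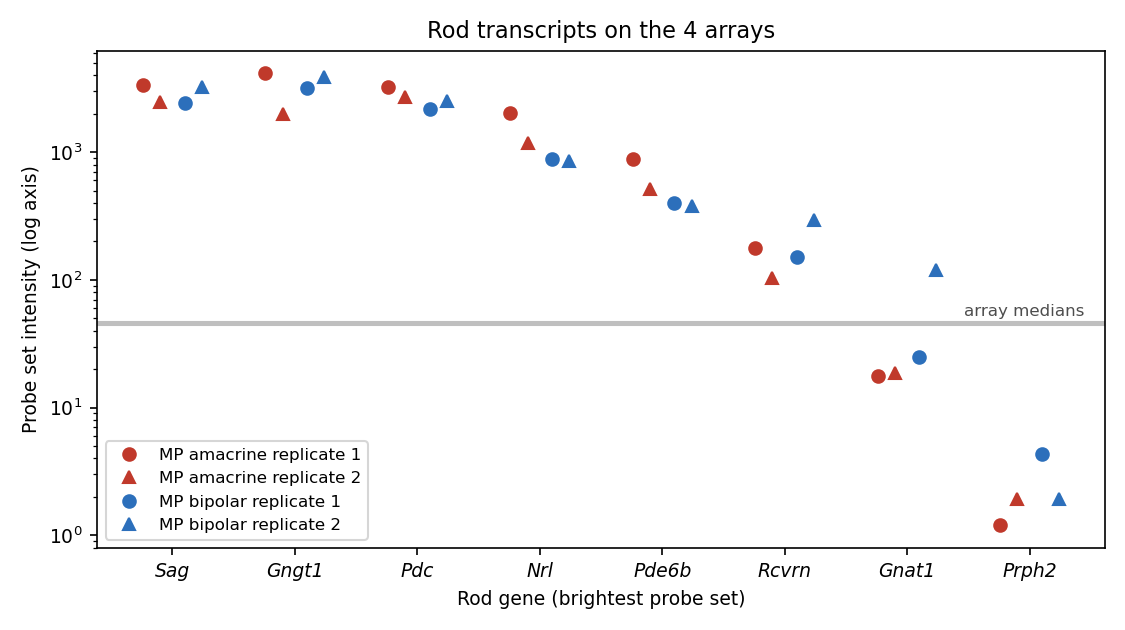
Intensity of the brightest probe set of each rod gene (log axis) on the 2 MP amacrine arrays (red) and the 2 MP bipolar arrays (blue), 1 point per array, with the array medians as a grey band. Sag, Gngt1 and Pdc lie between 1983 and 4138 on every array, while Gnat1 passes the band on 1 bipolar array and Prph2 on none.

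The sorts themselves carried the markers of their labels. In MP amacrine cells, relative to MP bipolar cells, 7 of 8 tested amacrine markers were higher and 8 of 9 tested bipolar markers lower, with none the other way, where 6.54% of all tested genes were higher and 6.92% lower. Without MP amacrine replicate 1 or 2 the amacrine count was 4 or 3, and without either bipolar array the bipolar count was 5. Of the rod genes, 0 of the 6 tested were called at an adjusted p under 0.05 (limma with Benjamini-Hochberg adjustment, n = 2 per sort), where 13.5% of all 11583 tested genes were called. With 6 genes nothing is read from that difference. At an unadjusted p under 0.05 there were 3 of 6, against 24.7% of all tested genes. The median log2 fold change of the 6, MP amacrine over MP bipolar, was 0.19, beside -0.03 for all tested genes. Without regard to direction the median was 0.46 for the 6 and 0.26 for all tested genes. The 6 genes are only those bright enough to be tested, and a p that misses the threshold does not show equal levels. Because 16 was added to each intensity before taking log2, fold changes of dim genes come out too small.

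Nrl, the factor that commits a cell to the rod fate, was read by probe set 1450946_at. Its intensity was 2028 and 1172 on the MP amacrine arrays, against 891 and 850 on the MP bipolar arrays. Both amacrine arrays thus lay above both bipolar arrays, and replicate 1 stood well above replicate 2. The means were 1600 ± 605 in MP amacrine cells and 871 ± 28.9 in MP bipolar cells (SD, n = 2 each). The log2 fold change was 0.81 (SE 0.26, 95% interval 0.22 to 1.41, adjusted p = 0.0844, limma), which did not pass. Without MP amacrine replicate 2 it was 1.21 and passed (adjusted p = 0.00848), and without MP amacrine replicate 1 it was 0.42 (adjusted p = 0.21).

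Neither of the transducin and phosphodiesterase genes of the rod set that could be tested, Pde6b and Gngt1, passed with all 4 arrays. Pde6b, a catalytic subunit of the rod phosphodiesterase (1419740_at), had intensities of 890 and 514 on the MP amacrine arrays, against 400 and 379 on the MP bipolar arrays. The sorts did not overlap, and the order of the arrays was that of Nrl. Its means were 702 ± 266 in MP amacrine cells and 389 ± 15.0 in MP bipolar cells (SD, n = 2 each), a log2 fold change of 0.77 (SE 0.28, 95% interval 0.12 to 1.43, adjusted p = 0.132, limma). Without MP amacrine replicate 2 the log2 fold change was 1.16 and passed (adjusted p = 0.0266, limma), and without MP amacrine replicate 1 it was 0.39.

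Gngt1, the gamma subunit of rod transducin, was the only member with more than 1 probe set, 4 in all. Its brightest, 1425167_a_at, read 4138 and 1983 on the MP amacrine arrays, against 3193 and 3908 on the MP bipolar arrays. The amacrine arrays were the highest and the lowest of the 4, so the sorts overlapped. The log2 fold change was -0.30 (SE 0.30, 95% interval -0.98 to 0.38, adjusted p = 0.617, limma). Without MP amacrine replicate 1 it was -0.83 and passed (adjusted p = 0.0102), and without MP amacrine replicate 2 it was 0.23. Probe set 1451633_a_at repeated the order, with 3085 and 1484 on the MP amacrine arrays and 2485 and 2977 on the MP bipolar arrays. Probe set 1425219_x_at, which may match several transcripts, read 412 and 121 against 230 and 316, and 1425168_at stayed at 8.57 to 21.1 over the 4 arrays. Tested singly, the 3 brighter probe sets had log2 fold changes of -0.34 to -0.24 and none was called, where 10.2% of 19168 probe sets were.

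Gnat1, the alpha subunit of rod transducin (1460212_at), was read at 17.6 and 18.7 on the MP amacrine arrays, against 24.95 and 120.0 on the MP bipolar arrays. Only MP bipolar replicate 2 exceeded its array's median, so the gene was too dim to enter the test. With no filter its log2 fold change was -1.13 (95% interval -2.68 to 0.43, adjusted p = 0.416, limma).

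Among the regulators of the cascade, the highest and lowest arrays differed by 1.38 times for Sag, 1.503 times for Pdc and 2.83 times for Rcvrn. Sag encodes rod arrestin, which ends the signal of activated visual pigment, and its probe set 1419025_at read 3336 and 2462 on the MP amacrine arrays, against 2422 and 3252 on the MP bipolar arrays. Each sort had 1 higher and 1 lower array and the sorts overlapped. The log2 fold change was 0.03 (SE 0.19, 95% interval -0.41 to 0.47, adjusted p = 0.95, limma). Of the 6 tested genes Sag had the smallest difference between the sorts, and its sign turned without MP amacrine replicate 1 (-0.19) and without MP bipolar replicate 1 (-0.18).

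Pdc encodes phosducin, which binds the beta and gamma subunits of transducin. Its probe set 1449179_at read 3260 and 2688 on the MP amacrine arrays, against 2168 and 2513 on the MP bipolar arrays. Both amacrine arrays lay above both bipolar arrays, by a narrow margin. The log2 fold change was 0.34 (SE 0.14, 95% interval 0.01 to 0.68, adjusted p = 0.195, limma).

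Rcvrn encodes recoverin, which restrains the kinase of the visual pigment and is also known in cones and in some cone bipolar cells. Its probe set 1450215_at read 177 and 103 on the MP amacrine arrays, against 151 and 293 on the MP bipolar arrays. MP bipolar replicate 2 was the highest and MP amacrine replicate 2 the lowest. The log2 fold change was -0.58 (SE 0.35, 95% interval -1.40 to 0.23, adjusted p = 0.375, limma), and the replicate difference within MP bipolar cells, 0.89 on the same scale, was larger than that.

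Prph2, a protein of the disc rim, stood for the structure of the outer segment. Its probe set 1420511_at read 1.20 and 1.92 on the MP amacrine arrays, against 4.37 and 1.93 on the MP bipolar arrays. These values lie at the bottom of the range of the table, so no fold was drawn from them.

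**Figure D2:**
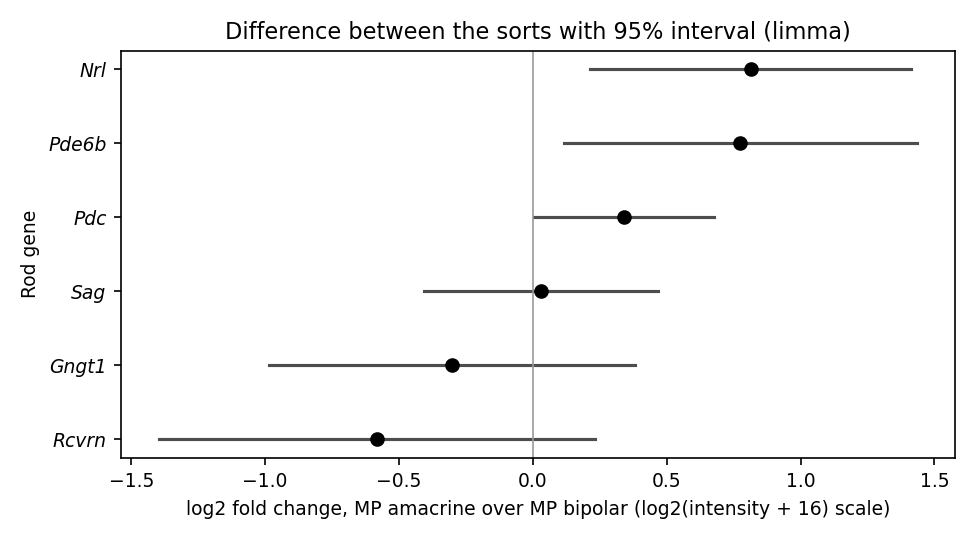
Log2 fold change of the 6 tested rod genes, MP amacrine over MP bipolar, on the log2(intensity + 16) scale, as points with 95% intervals from limma (n = 2 arrays per sort). Nrl (0.81) and Pde6b (0.77) lie to the right, Sag (0.03) at the centre and Rcvrn (-0.58) to the left, and no gene passed an adjusted p of 0.05.

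Of the 6 tested genes 3, Nrl, Pde6b and Pdc, had sorts that did not overlap, all with the amacrine arrays higher. Of all tested genes 53.3% did not overlap, 24.2% with the amacrine arrays higher. For the other 3, Sag, Gngt1 and Rcvrn, a gap between replicates of 1 sort was larger than the difference between the sorts. The largest such gap was that of Gngt1 between the MP amacrine arrays, with a log2 ratio of 1.05.

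Replicates of the amacrine sort differed in rod transcripts as a group. All 6 genes were higher on MP amacrine replicate 1 than on MP amacrine replicate 2, with log2 ratios between 0.28 (Pdc) and 1.05 (Gngt1) and a median of 0.73. Over all tested genes 55.8% were higher on replicate 1, with a median log2 ratio of 0.05. Other rod transduction genes leaned the same way, 6 of 7 with a median of 0.55, and so did 9 of 12 outer segment and visual cycle genes, with a median of 0.49. Cone genes were split, 3 of 7 with a median of -0.03, as were photoreceptor transcription factors, 4 of 9 with a median of -0.09. Bipolar markers leaned toward replicate 1 too, 7 of 9 with a median of 0.45. The lean was thus not particular to rod genes. Between the bipolar replicates 2 of 6 rod genes were higher on replicate 1, with a median of -0.25 and a range of -0.89 to 0.08. Over all tested genes 46.8% were, with a median of -0.02. So were 2 of 12 outer segment and visual cycle genes (median -0.34) and 3 of 7 other rod transduction genes (-0.03). Cone genes had 4 of 7 (0.10) and photoreceptor transcription factors 7 of 9 (0.19).

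Other measures separated the amacrine arrays too. The Gapdh control differed between its 3-prime and 5-prime ends by 3.21 (log2) on MP amacrine replicate 2 and by 1.78 to 2.0 on the other arrays, and actin by 3.82 against 1.89 to 2.13. The 7 microglial markers summed to 1258 and 4063 on the MP amacrine arrays, against 1658 and 454 on the MP bipolar arrays. Of these microglial sums, Ctss alone held 567 and 2665, against 1003 and 2.27. The 8 ganglion cell markers summed to 3881 and 1928, against 2812 and 3672. Members of that list went opposite ways. Thy1 held 806 and 1455, against 2462 and 3415, while Nefm held 1631 and 136, against 47.7 and 35.0. A sum thus does not stand for every marker of its list. The 11 Müller glia markers summed to 4601 and 4244, against 2228 and 2774, with 3 of 7 tested higher in MP amacrine cells and none lower, beside the 6.54% and 6.92% of all tested genes. Of the Müller glia list, Sox9, Hes1, Aqp4 and Car14 lay below the array median on all arrays. No marker of these lists was at 0, since the table has no such values. The part of these differences in the rod values was not tested.

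The 6 genes did not follow 1 common profile over the 4 arrays. The distance between profiles was taken as the root mean square difference of log2 values, each gene centred on its own mean over the 4 arrays. Nrl and Pde6b were the closest pair, at 0.0201, and 1 of 11582 tested genes lay closer to Nrl than Pde6b did. This pair was ranked after it was seen to be the closest, so its rank is a description and has no test. Sag and Pdc came next at 0.181, and Nrl and Rcvrn were farthest apart at 0.776. Between MP amacrine replicate 2 and MP bipolar replicate 2, Nrl had a log2 ratio of 0.46 and Rcvrn one of -1.37. The ratio of 1 rod transcript to another therefore differed between arrays. Over that pair of arrays, the SD of the log2 ratios was 0.757 for the 6 genes and 0.913 for all tested genes. Between the amacrine replicates it was 0.276 and 0.437, and between the bipolar replicates 0.358 and 0.355. On these pairs the spread among the rod genes was thus close to or below that of all tested genes.

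**Figure D3:**
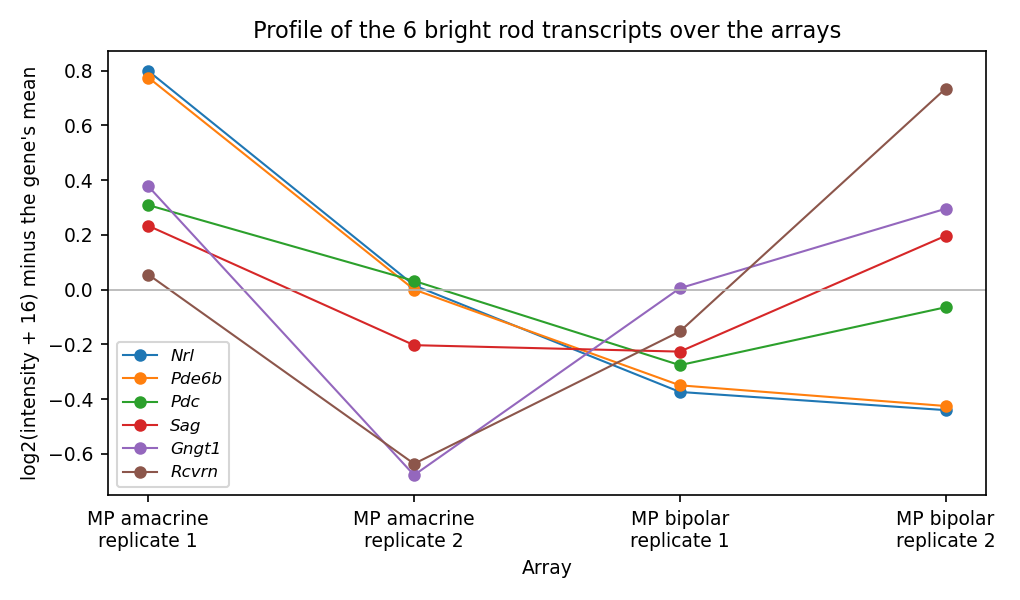
Log2(intensity + 16) of each tested rod gene minus its mean over the 4 arrays, with amacrine arrays left and bipolar arrays right. Lines join the values of 1 gene and imply no order. Nrl and Pde6b coincide on all arrays, and every gene is higher on MP amacrine replicate 1 than on replicate 2.

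Of the genes outside the rod set, the 5 with profiles closest to the mean profile of the 6 were Bloc1s4 (0.0168), Echdc1 (0.0236), Fam32a (0.0314), B9d1 (0.0363) and Usp3 (0.0444). The likeness is the same distance over 4 arrays. In all, 86 tested genes lay within 0.1 of that profile.

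The remaining rod transduction genes held 1 call. Of 14 listed, 12 had a probe set and 7 were tested, with none higher and 1 lower in MP amacrine cells. Over all tested genes 6.54% were higher and 6.92% lower, so the count by itself does not set this list apart. The called gene was Rgs9bp, the membrane anchor of a transducin regulator that ON bipolar cells also use, at 78.8 and 48.6 on the MP amacrine arrays against 615 and 745 on the MP bipolar arrays (log2 fold change -3.15, SE 0.26, adjusted p = 1.72e-04, limma). The cyclic GMP-gated channel subunits were read on every array. Cnga1 had 193 and 98.1 on the MP amacrine arrays against 125 and 128 on the MP bipolar arrays, and Cngb1 had 333 and 219 against 204 and 182. The kinase Grk1 and the guanylate cyclase Gucy2e lay between 1.0 and 2.17 on all arrays, near the bottom of the table as Prph2 did.

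Outer segment and visual cycle genes went both ways. Of 17 listed, 14 had a probe set and 12 were tested, with 2 higher and 1 lower in MP amacrine cells. The shares of all tested genes were 6.54% higher and 6.92% lower. The membrane protein Prom1 had 1796 and 1643 on the MP amacrine arrays, against 575 and 794 on the MP bipolar arrays (1.33, SE 0.21, adjusted p = 0.0041, limma). Rp1, a microtubule protein of the outer segment, had 274 and 286 against 141 and 161 (0.82, SE 0.22, adjusted p = 0.0418), and did not pass after median scaling (adjusted p = 0.0534), with no filter (0.0939), with probe sets tested singly (0.0641) or with any single array left out (0.0589 to 0.285). Its other probe set gave 0.01, and the mean of both gave 0.42 (adjusted p = 0.155). Unc119, which binds transducin and other lipid-modified proteins, had 696 and 364 on the MP amacrine arrays, against 1792 and 1793 on the MP bipolar arrays (-1.80, SE 0.29, adjusted p = 0.00467, limma), and did not pass with no filter (adjusted p = 0.0628).

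Transcription factors of photoreceptors went both ways as well. Of 11 listed, 9 were tested, and 4 were higher and 2 lower in MP amacrine cells. The shares of all tested genes were 6.54% higher and 6.92% lower. Samd7, a rod repressor of Polycomb type, had 455 and 250.9 on the MP amacrine arrays, against 89.4 and 63.2 on the MP bipolar arrays (log2 fold change 1.96, SE 0.31, adjusted p = 0.00439, limma). Its relative Samd11 had 1560 and 1191 against 713 and 622 (1.02, SE 0.21, adjusted p = 0.0151). Samd11 did not pass with no filter (adjusted p = 0.0693), without MP bipolar replicate 2 (0.0979) or with the mean of its probe sets (0.47, adjusted p = 0.117). With the mean of its probe sets Samd7 was 1.05 and still passed (adjusted p = 0.0104), and with no filter it did not (0.0607). Rorb, a nuclear receptor that acts upstream of Nrl and is also used by amacrine cells, had 917 and 1215 against 462 and 303 (1.46, SE 0.27, adjusted p = 0.00888). Rorb did not pass with no filter (adjusted p = 0.0686), without MP amacrine replicate 2 (0.052) or without MP bipolar replicate 2 (0.0539). Samd7, Samd11 and Rorb were each higher on both amacrine arrays than on both bipolar arrays.

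Otx2, which photoreceptors and bipolar cells share, had 1523 and 1646 on the MP amacrine arrays, against 3718 and 3848 on the MP bipolar arrays (-1.25, SE 0.12, adjusted p = 3.82e-04, limma). The other called genes of the list were Prdm1 (0.95, adjusted p = 0.0268), which steers precursors toward photoreceptors and away from bipolar fate, and Crx (-0.97, adjusted p = 0.0152), named after their values were seen. Prdm1 did not pass with no filter (adjusted p = 0.101, limma). With single arrays left out, its log2 fold change lay between 0.78 and 1.12. The call of Prdm1 was lost without MP amacrine replicate 2 and without either bipolar array. Crx, also shared with bipolar cells, had 1022 and 766 on the MP amacrine arrays, against 1877 and 1621 on the MP bipolar arrays. Crx was thus lower in MP amacrine cells, while Nrl, its partner on rod promoters, had a positive fold change that did not pass. The call of Crx was lost without either bipolar array (adjusted p = 0.115 and 0.0537), with no filter (0.08) and with the mean of its probe sets (-0.64, adjusted p = 0.0765), where the dimmer probe set gave -0.31. The count of higher calls in the list was 0 with no filter on dim genes, 1 without MP bipolar replicate 2 and 2 without MP amacrine replicate 2.

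Some cone genes were also read in both sorts, while Opn1mw, Arr3, Pde6c and Rxrg lay below the array median on all arrays. Of 12 listed, 11 had a probe set and 7 were tested, with 1 higher and 1 lower in MP amacrine cells. Over all tested genes 6.54% were higher and 6.92% lower, so the counts by themselves do not set this list apart. Gnat2, the cone transducin alpha subunit, had 548 and 561 on the MP amacrine arrays, against 239 and 243 on the MP bipolar arrays (1.15, SE 0.21, adjusted p = 0.00925, limma). Without either bipolar array it did not pass (adjusted p = 0.0647 and 0.0677). Gnb3, a beta subunit shared by cones and ON bipolar cells, had 135 and 76.5 on the MP amacrine arrays, against 607 and 503 on the MP bipolar arrays (-2.27, SE 0.29, adjusted p = 0.00137, limma). Without MP amacrine replicate 1, lower calls rose among cone genes, outer segment genes and other rod transduction genes. They rose over all tested genes too, so nothing is read from the rise in these lists.

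**Figure D4:**
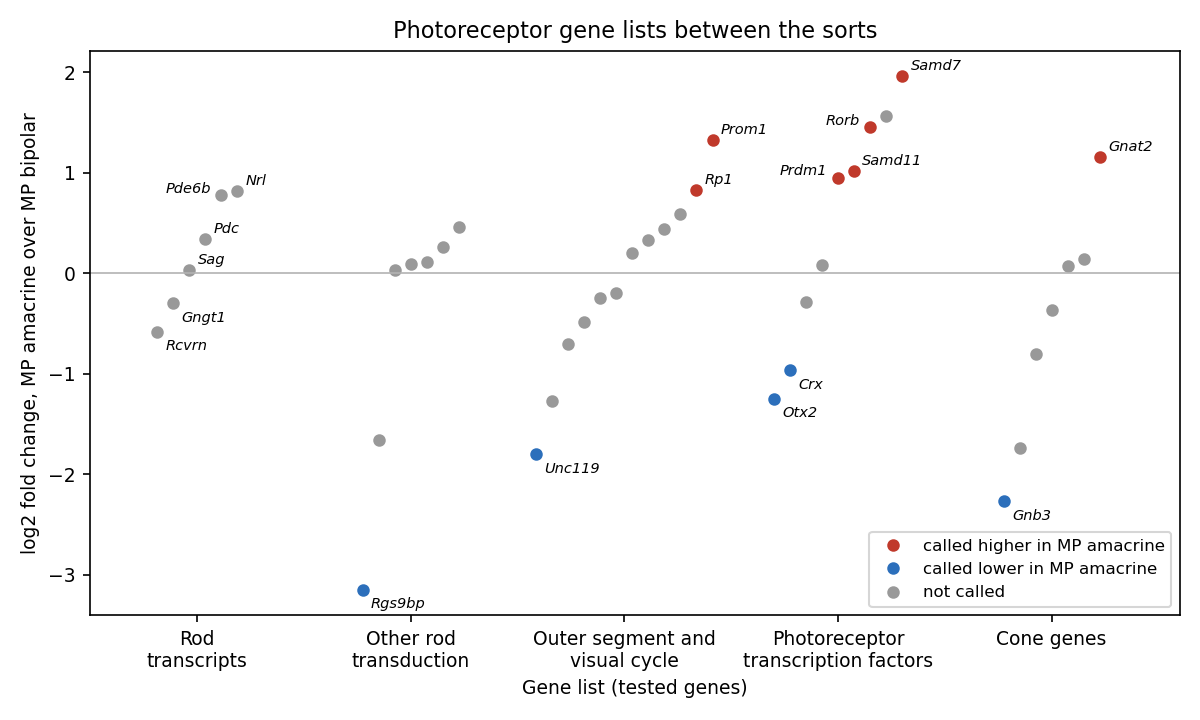
Log2 fold change, MP amacrine over MP bipolar, of each tested gene (1 point) in the rod set and in 4 related photoreceptor lists, with red for genes called higher, blue for genes called lower and grey for genes not called (limma, adjusted p under 0.05). The 6 rod genes hold no called point, while Rgs9bp (-3.15), Gnb3 (-2.27) and Samd7 (1.96) lie farthest from 0 among the called genes.

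Markers of the pigment epithelium, which lies against the rods, stayed low. All 6 pigment epithelium markers lay below the array median on all 4 arrays, with sums of 61.4 and 81.8 on the MP amacrine arrays and 54.9 and 60.7 on the MP bipolar arrays. The 8 rod genes summed to 13848 and 8942 on the MP amacrine arrays, against 9254 and 11317 on the MP bipolar arrays. The sums overlapped between the sorts. Sums of different lists rest on different probe sets and were not compared with each other. Of 5 tested microglial markers 1 was higher in MP amacrine cells, and of 6 tested ganglion cell markers 1 was lower. Over all tested genes 6.54% were higher and 6.92% lower, so these counts do not set the lists apart. No horizontal cell or endothelial marker was called, of 2 tested each. None of the cycling progenitor markers was bright enough to be tested.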

How the data were processed

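The values deposited by the authors are linear intensities, 1 for each of 45101 probe sets on each of 4 arrays, from 0.73 to 9763. Their summary and scaling method is not given in the sources used. Per the labels' protocols, RNA was isolated with PicoPure and amplified in 2 rounds with MessageAmp. The quartiles of the 4 arrays lay within 0.085 of each other on the log2 scale, so no further scaling was applied.

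The values were used as log2(intensity + 16). The 64 control probe sets were left out, as were 932 probe sets of several genes and 9160 of none. The brightest probe set stood for a gene, and a gene was tested when it lay above the array median on at least 2 arrays (11583 genes, 6610 too dim). Sorts were compared with limma 3.58.1 in R 4.3.3 (lmFit, eBayes with an intensity trend, two-sided, 2 residual degrees of freedom), with Benjamini-Hochberg adjustment over all tested genes. The number of arrays limits the precision.

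The members and lists were chosen with earlier results of these data known. All members were named, with every probe set, and of each photoreceptor list up to 4 called genes by absolute log2 fold change. Cnga1, Cngb1, Grk1, Gucy2e, Prdm1 and Crx were named after their values were seen. Alternatives covered scaling, offset, filter, choice of probe set, variance moderation, the replicate number as a block, and each array left out.

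Samples sharing a replicate number are not stated to share a litter. Over the tested genes, the difference between replicates 1 and 2 in MP amacrine cells correlated at -0.0415 with that in MP bipolar cells, so the numbers were not taken as pairs.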

Additional observations from a re-analysis of the deposited data

How the results depend on the processing

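Under quantile, loess and median scaling, offsets of 1 and 64 and no intensity trend, 0 rod genes were called in either direction. The same held under both other filters and the other choices of probe set, and each of the 6 kept its sign. Nrl lay close to the threshold, with adjusted p = 0.05001 (loess), 0.0527 (75th percentile filter) and 0.0534 (quantile) by limma. Pdc reached 0.0544 (loess) and 0.0571 (quantile). The lack of calls in these settings thus depends on the cut-off. With the replicate number as a block 1 rod gene was called higher, Nrl (adjusted p = 0.0148, log2 fold change 0.81), and no other rod gene changed its call. With each array left out in turn, 0 to 2 rod genes were called higher and 0 to 1 lower. Over the same omissions the log2 fold change of Sag ranged from -0.19 to 0.25, that of Gngt1 from -0.83 to 0.23, and the median of the tested rod genes from 0.01 to 0.36, beside -0.05 with no filter, where Gnat1 and Prph2 enter. An omission leaves 1 array in a sort, which was assumed to vary like the other sort. The number of all genes called was 785 with no filter, where more genes are tested, and 823 to 1700 with each array left out (823 without MP bipolar replicate 2, 948 without MP bipolar replicate 1, 1018 without MP amacrine replicate 2), and the cause was not tested. Counts of called genes in the other lists moved by over 1.5 times, or to or from 0, in 52 of the cases run. These cases covered 26 counts, each under 16 alternatives. No scaling moved the median of all genes by 0.1. With 2 arrays per sort and no detection calls, absence cannot be read from Gnat1 or Prph2.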

Other observations

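Among the 35 tested genes of the other photoreceptor lists, those with profiles nearest to that of Nrl were Samd11 (0.179), Tulp1 (0.187) and Cngb1 (0.197), by the same root mean square distance over 4 arrays. Tulp1, a photoreceptor protein needed for transport to the outer segment, had 228 and 160 on the MP amacrine arrays, against 140 and 107 on the MP bipolar arrays. All 3 were higher on both amacrine arrays than on both bipolar arrays, as were Nrl and 24.2% of all tested genes. Picking genes by closeness to Nrl favours that order, so the order adds nothing to the likeness. The 3 genes were picked after their values were seen, so the likeness is a description and has no test.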
